A study of Mus musculus with 21 samples.

Results

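The bitter taste receptors of the mouse, the Tas2r genes, were examined in messenger RNA of tuft cells sorted from 5 tissues. The family was taken as the 35 gene rows whose Ensembl identifiers map to a fixed list of Tas2r symbols, of 43432 gene rows in the deposited count tables, with no filter on low counts. All groups came from naive mice of the strain C57BL6.Il25(Flare25/Flare25), in which a fluorescent reporter marks cells that express Il25, and live cells were gated as DAPI-, CD45- and EPCAM+. Reporter-positive cells were taken as tuft cells from small intestine (n = 3 libraries, numbered 2 to 4), colon (n = 4), gall bladder (n = 3, numbered 1, 3 and 4), thymus (n = 4) and trachea (n = 4). Reporter-negative epithelium of the small intestine (n = 3) was the only reference without tuft cells, so the other tissues have none of their own. Trachea libraries were pools of 4 mice, from 12, 16, 16 and 14 weeks of age for pools 1 to 4, and pools 3 and 4 were female. The other libraries came from 1 male mouse each at 12 weeks. Preparation differed by tissue, with EDTA for gut and gall bladder, an enzyme digest (Liberase, DNase) and Percoll for thymus, and Dispase followed by trypsin for trachea. Tissue and preparation therefore cannot be told apart. A tuft replicate of the small intestine, one of the gall bladder and one of the reference had failed quality control and were discarded by the submitters.

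Bitter receptors are G protein-coupled receptors of a family whose members have single-exon coding genes and lie mostly in tandem arrays. In taste buds several of them are co-expressed in the same cells, where binding of a bitter compound releases gustducin (alpha subunit Gnat3, gamma subunit Gng13), activates phospholipase Plcb2 and opens the cation channel Trpm5. Tuft cells, also called brush or solitary chemosensory cells, share this signalling chain and depend on the transcription factor Pou2f3, and those of the airway are known to respond to bitter compounds.

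Library totals ran from 25739248 to 73574745 counts, while sorted cell numbers ran from 130 in a trachea pool to 57000 in a reference library. All 14 tuft markers had at least 3 counts in every library of each tuft group, with Pou2f3 at 482 ± 31.0 CPM in thymus, 1076 ± 274 in trachea, 640.2 ± 93.3 in small intestine, 188 ± 21.3 in colon and 360.3 ± 122 in gall bladder tuft cells, against 12.5 ± 1.92 in the reference (mean ± SD over libraries). CPM, here always after TMM scaling between libraries, relate a gene's counts to the scaled library total. The 14 markers also had at least 3 counts in every reference library. Their summed level there was 229 to 456 CPM, against at least 5200 CPM in every tuft library. Of 10 markers of medullary thymic epithelium, 9 had at least 3 counts in every thymus library, with a summed level of 1798 to 1931 CPM against 64.9 to 260 CPM in trachea, and Ccl21a was under 3 counts in 3 thymus libraries. By the same measure 9 were detected in colon tuft cells and 8 in the reference, at summed levels of 488 to 652 and 468.5 to 820 CPM. Small intestine and gall bladder tuft cells had summed levels of 383 to 437 and 216 to 920 CPM. Of 6 markers of airway secretory cells, all 6 had at least 3 counts in every trachea library, with a summed level of 29660 to 128700 CPM against 229 to 475 CPM in thymus.

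Transcripts of the bitter receptors were abundant in thymus and trachea tuft cells and at or near the counting floor in all other groups. Summed over the 35 genes, the level was 188, 222, 135 and 178 CPM in thymus libraries 1 to 4 and 131.5, 314, 453 and 419 CPM in trachea pools 1 to 4. It was 0.825 to 1.43 CPM in the reference, 0 to 1.42 in small intestine tuft, 0.764 to 1.84 in colon tuft and 0 to 2.25 in gall bladder tuft libraries. The lowest thymus or trachea library thus lay well above the highest library of the other 4 groups. In raw numbers, 42818 counts fell on the family in thymus and 51179 in trachea, against 697 counts over the other 13 libraries. In bulk samples, fewer cells that express a gene and less RNA per cell cannot be told apart.

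More members were detected in thymus than in trachea. A gene was taken as detected in a library at 3 or more counts. In thymus 29 to 32 members were detected per library, and 29 were detected in all 4. In trachea 13 to 19 were detected per pool, and 10 were detected in all 4. Genes at large were also more numerous in thymus. A comparison of library pairs took in 18480 to 19756 genes within thymus and 13253 to 14683 within trachea. Trachea pools held 130 to 453 cells and thymus libraries 1350 to 1900. The part of cell number in the members detected was not tested. The reference had 6 to 8 members per library, small intestine tuft cells 0 to 5, colon tuft cells 4 to 11 and gall bladder tuft cells 0 to 6. Only 3 members, Tas2r108, Tas2r137 and Tas2r138, were detected in every library of the reference, and the same 3 in every colon tuft library. Without small intestine tuft library 4, 3 members were detected in both remaining libraries of that group, without gall bladder tuft library 3, 2 members were, and without reference library 1, 5 members were. In thymus 26 members averaged at least 1 CPM and 5 at least 10 CPM, and in trachea 12 and 6. Tas2r139 had 0 counts in all 21 libraries, which at these totals allows up to 0.0408 to 0.117 CPM per library without TMM scaling (3 counts, counting error only).

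**Figure D1:**
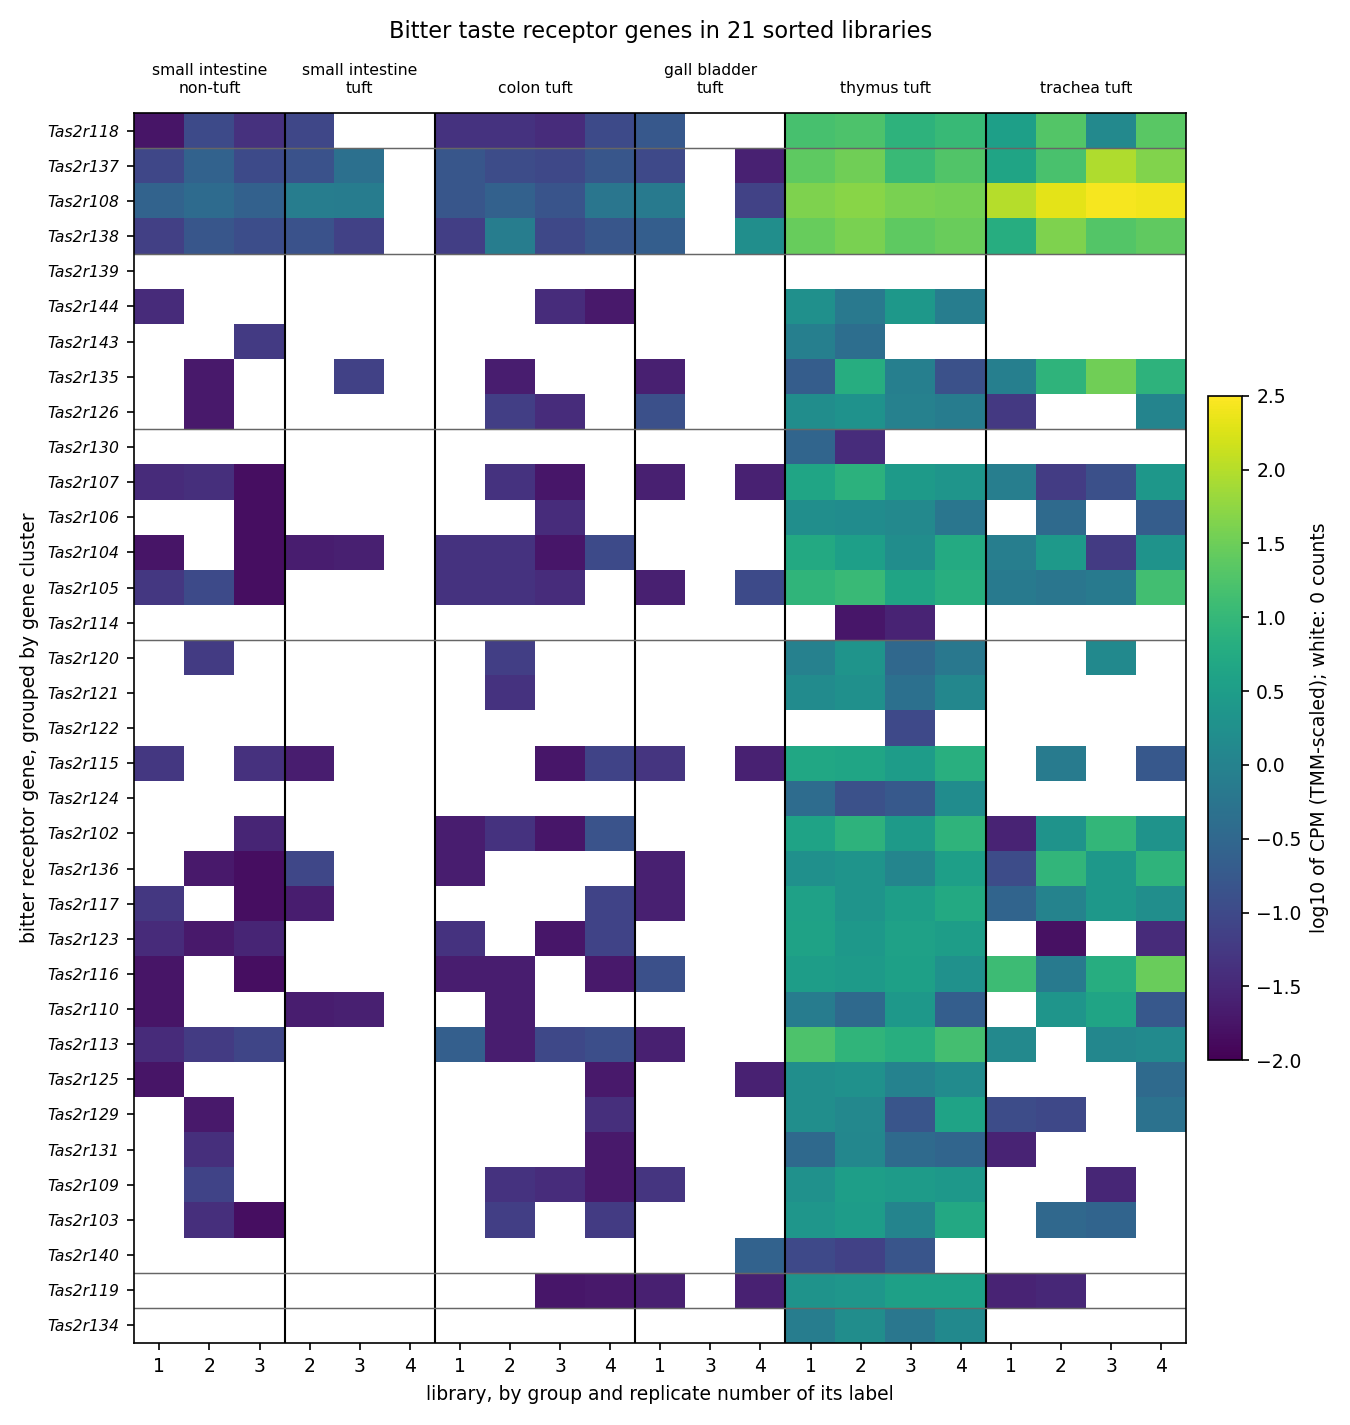
Level of each of the 35 bitter receptor genes (rows, in order along each gene cluster) in each of the 21 libraries (columns, by group), as log10 of TMM-scaled CPM, with white for 0 counts. Thymus columns are filled for 29 to 33 members and trachea columns for 17 to 20, while small intestine tuft library 4 and gall bladder tuft library 3 are white throughout.

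All members are single-exon, protein-coding genes, and none overlaps another gene in the annotation (GENCODE M21, GRCm38). On chromosome 6 they lie as a single gene, as arrays of 3, 5, 6 and 18 genes, and the remaining 2 members, Tas2r119 and Tas2r134, are on chromosomes 15 and 2. Levels were compared between genes only after division by exon length, as CPM per kb.

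The array of 3 genes, Tas2r137 (chromosome 6, 40491233 to 40492305, plus strand), Tas2r108 (40493529 to 40494541, plus strand) and Tas2r138 (40612315 to 40613310, minus strand), carried 52.0% ± 3.63 of the summed family level in thymus and 83.0% ± 3.79 in trachea (SD, n = 4 each). Tas2r108, a receptor that responds to denatonium and the counterpart of human TAS2R4, had the highest length-scaled level of the family in both tissues, 41.2 ± 5.53 CPM per kb in thymus and 208 ± 78.7 in trachea. It was at 41.9, 49.3, 39.9 and 35.9 CPM in thymus libraries 1 to 4 and at 99.8, 207, 279 and 256 CPM in trachea pools 1 to 4. Every trachea pool lay above every thymus library, although trachea pool 1 stood well below the other 3. Over the other 13 libraries it had 0 to 36 counts per library, with a median of 15.

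Tas2r138, the counterpart of human TAS2R38 and thus of the receptor for phenylthiocarbamide, was at 28.4, 38.5, 23.8 and 29.4 CPM in thymus and 6.39, 43.0, 20.0 and 25.1 CPM in trachea. Tas2r137, whose start lies just before that of Tas2r108 on the same strand, was at 24.7, 33.2, 11.4 and 19.3 CPM in thymus and 4.27, 16.2, 90.3 and 43.5 CPM in trachea. The single gene Tas2r118 (23969161 to 23970060, minus strand), the counterpart of human TAS2R16, was at 15.2, 17.6, 8.02 and 10.6 CPM in thymus and 3.49, 19.7, 1.32 and 22.7 CPM in trachea. For these 3 genes the thymus and trachea ranges overlapped, and the trachea pools spread over a much wider range than the thymus libraries. Their length-scaled means in thymus, 30.2 ± 6.18, 20.6 ± 8.55 and 14.3 ± 4.84 CPM per kb in that order, followed Tas2r108, and each neighbouring pair in this order, Tas2r108 and Tas2r138 included, had overlapping thymus ranges.

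Promoter sequences are shown for the 6 members with the highest length-scaled level that have an entry in the RefSeq promoter table (GRCm38.p6), because these genes carried most of the family's transcripts. Each runs 5′ to 3′ on the gene's strand from 250 bases before to 50 bases after the RefSeq start. In all 6 windows the last 50 bases begin with ATG, so the RefSeq start appears to be that of the coding sequence. Where transcription starts is not known from these windows. Capitals mark the octamer ATGCAAAT, on either strand, so that its reverse complement also appears, and TATAAA was searched in the same way without a match in these 6. The windows are chr6:40493342-40493641 (plus strand), chr6:40490988-40491287 (plus), chr6:40613261-40613560 (minus), chr6:23970011-23970310 (minus), chr6:132892761-132893060 (plus) and chr6:42405279-42405578 (plus).
Tas2r108: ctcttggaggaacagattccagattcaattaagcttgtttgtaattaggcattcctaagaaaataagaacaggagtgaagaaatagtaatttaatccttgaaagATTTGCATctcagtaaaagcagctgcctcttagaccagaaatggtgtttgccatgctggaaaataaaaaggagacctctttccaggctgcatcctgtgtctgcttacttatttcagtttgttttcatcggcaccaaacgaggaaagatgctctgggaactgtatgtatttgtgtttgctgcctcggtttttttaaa
Tas2r137: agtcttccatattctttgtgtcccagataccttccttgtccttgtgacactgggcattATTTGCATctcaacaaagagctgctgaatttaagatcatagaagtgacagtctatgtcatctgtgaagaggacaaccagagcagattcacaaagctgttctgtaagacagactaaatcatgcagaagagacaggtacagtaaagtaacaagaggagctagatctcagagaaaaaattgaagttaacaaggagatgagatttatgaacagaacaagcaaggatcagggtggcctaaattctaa
Tas2r138: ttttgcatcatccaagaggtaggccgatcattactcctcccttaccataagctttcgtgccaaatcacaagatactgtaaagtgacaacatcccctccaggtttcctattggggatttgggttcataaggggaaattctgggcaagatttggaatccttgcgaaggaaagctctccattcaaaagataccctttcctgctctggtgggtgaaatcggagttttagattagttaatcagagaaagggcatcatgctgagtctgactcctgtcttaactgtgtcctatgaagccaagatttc
Tas2r118: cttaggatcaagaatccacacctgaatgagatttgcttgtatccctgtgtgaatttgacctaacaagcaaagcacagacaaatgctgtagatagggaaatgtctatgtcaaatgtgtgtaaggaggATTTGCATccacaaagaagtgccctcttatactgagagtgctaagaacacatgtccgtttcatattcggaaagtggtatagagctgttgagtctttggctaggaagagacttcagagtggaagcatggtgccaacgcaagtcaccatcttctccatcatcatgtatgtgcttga
Tas2r113: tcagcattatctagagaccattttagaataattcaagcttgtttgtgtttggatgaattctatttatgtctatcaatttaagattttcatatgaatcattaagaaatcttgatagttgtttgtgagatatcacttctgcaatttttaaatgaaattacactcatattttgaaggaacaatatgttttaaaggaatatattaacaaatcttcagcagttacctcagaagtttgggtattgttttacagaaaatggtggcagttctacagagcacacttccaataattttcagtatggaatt
Tas2r135: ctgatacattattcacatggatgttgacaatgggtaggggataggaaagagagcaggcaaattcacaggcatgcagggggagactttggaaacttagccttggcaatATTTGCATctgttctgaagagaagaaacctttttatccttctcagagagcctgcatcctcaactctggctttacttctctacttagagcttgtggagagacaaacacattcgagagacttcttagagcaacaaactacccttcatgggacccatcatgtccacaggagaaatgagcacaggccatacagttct

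The octamer, the core letters bound by POU domain factors such as Pou2f3, stood in 4 of these 6 windows, each time as the reverse complement. Among the 31 members with an entry it was found in 7 (22.6%), namely Tas2r107, Tas2r108, Tas2r118, Tas2r126, Tas2r135, Tas2r137 and Tas2r144, against 1.74% of 32817 promoters of all genes in the table. Among the 11920 promoters within the range of GC content of the members, 28.7% to 49.0%, the share was 2.83%. These promoters were not matched to the members within that range. Median GC content was 37.0% over members and 52.7% over all promoters, so base composition may still differ. Of the 7 members with the octamer, 5 were detected in all 4 trachea pools and 7 in all 4 thymus libraries, and of the 24 members without it 2 and 18 were. This split was looked at after the levels were known and has no test, and a match is a run of letters, not a shown binding site. TATAAA was in 10 members (32.3%), against 13.6% of all promoters and 25.8% of those in the same range of GC content. Where a start is that of the coding sequence, as in the printed windows, the window may miss the promoter. For both motifs the shares of members and of all genes may therefore come from unlike positions. Tas2r116, Tas2r117, Tas2r121 and Tas2r136 have no entry.

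In the array of 5 genes, which runs from 42140936 to 42435464 on chromosome 6, Tas2r135 was at 0.209, 6.48, 0.864 and 0.130 CPM in thymus and 0.893, 8.32, 33.3 and 8.03 CPM in trachea. Thymus library 2 stood far above the other 3, and trachea pool 3 above the rest of its group. Tas2r126 was at 1.63, 2.00, 0.949 and 0.782 CPM in thymus and 0.0558, 0, 0 and 1.06 CPM in trachea, where only pool 4 reached the thymus range. Tas2r144 was at 1.82, 0.666, 2.46 and 0.800 CPM in thymus and had 0 counts in all trachea pools. Tas2r143 was present in thymus libraries 1 and 2 only, at 0.870 and 0.426 CPM, and had 0 counts in trachea. Tas2r143, Tas2r135 and Tas2r126 are neighbours on the same strand, yet Tas2r135 alone averaged over 1 CPM in trachea.

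The array of 6 genes, from 131629823 to 131690063, held Tas2r105, the cycloheximide receptor, as the member with the highest length-scaled mean, 7.95 ± 3.01 CPM per kb in thymus and 4.02 ± 6.68 in trachea. Tas2r105 was at 8.71, 11.1, 4.32 and 6.55 CPM in thymus and 0.698, 0.584, 0.678 and 13.5 CPM in trachea, where pool 4 lay above every thymus library and the other 3 pools lay below all of them. Tas2r107 was at 4.33, 7.92, 2.89 and 2.25 CPM in thymus and 0.838, 0.0632, 0.123 and 2.40 CPM in trachea. Tas2r104 was at 5.48, 3.42, 1.63 and 5.75 CPM in thymus and 0.838, 2.67, 0.0616 and 2.02 CPM in trachea. Both had overlapping ranges in these tissues. Tas2r106 was at 1.66, 1.52, 1.32 and 0.596 CPM in thymus and 0, 0.363, 0 and 0.212 CPM in trachea, without overlap. Tas2r130 was at 0.290, 0.0370, 0 and 0 CPM in thymus and had 0 counts elsewhere, and Tas2r114 had 1 and 2 counts in thymus libraries 2 and 3 and none elsewhere. The array as a whole summed to 17.5 ± 6.06 CPM in thymus and 6.27 ± 8.02 CPM in trachea.

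The array of 18 genes, from 132656953 to 133055816, summed to 47.6 ± 11.2 CPM in thymus and 25.8 ± 13.9 CPM in trachea, or 26.6% ± 5.58 and 8.21% ± 2.92 of the family (SD, n = 4 each). By length-scaled mean, Tas2r113 led the array in thymus (12.6 ± 5.26 CPM per kb) and Tas2r116 in trachea (13.4 ± 13.6). Tas2r113 was at 17.2, 8.77, 6.57 and 14.2 CPM in thymus and at 1.31, 0, 1.23 and 1.41 CPM in trachea. Tas2r116 was at 3.17, 2.89, 3.61 and 1.88 CPM in thymus and at 12.3, 0.711, 6.44 and 29.6 CPM in trachea. Tas2r113 did not overlap between the 2 tissues, and Tas2r116 did, with trachea pool 2 below and the other 3 pools above all thymus libraries.

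Within this array, 5 further members besides Tas2r129 were present in both tissues with overlapping ranges. Tas2r102 was at 4.06, 8.07, 2.85 and 8.38 CPM in thymus and 0.0279, 2.08, 9.68 and 2.05 CPM in trachea, where pool 1 had a single count and pool 3 the highest level of all 8 libraries. Tas2r136 was at 1.79, 2.17, 1.10 and 3.50 CPM in thymus and 0.112, 9.08, 2.46 and 8.52 CPM in trachea. Tas2r110 was at 0.789, 0.352, 2.48 and 0.223 CPM in thymus and 0, 2.20, 4.31 and 0.177 CPM in trachea. For both, some trachea pools lay above and others below the thymus libraries. Tas2r120 was at 0.967, 2.17, 0.326 and 0.633 CPM in thymus and 0, 0, 1.36 and 0 CPM in trachea, where it rested on pool 3 alone. Tas2r117 was at 3.79, 2.15, 3.37 and 5.47 CPM in thymus and 0.279, 1.04, 2.53 and 1.66 CPM in trachea.

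The level of Tas2r117 is uncertain, since 38.6% of its windows of 50 bases occur in other annotated transcripts, among them Tas2r109 and Tas2r123, and reads from such windows cannot be assigned to 1 gene. The same share was 5.99% for Tas2r109, 7.45% for Tas2r110, 7.66% for Tas2r123 and 0 for the other members. The longest identical stretch between members, 120 bases, joins Tas2r110 and Tas2r123 (bases 596 to 715 of both annotated transcripts) and is shown in full because it lies in a gene called between tissues.
Tas2r110 and Tas2r123: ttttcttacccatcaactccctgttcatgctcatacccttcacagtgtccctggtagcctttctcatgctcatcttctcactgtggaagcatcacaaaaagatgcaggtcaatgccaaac

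The other members of the array were mostly thymic. Tas2r115 was at 4.83, 4.35, 3.10 and 6.81 CPM in thymus and 0, 0.742, 0 and 0.177 CPM in trachea. Tas2r103 was at 2.27, 3.02, 1.06 and 5.25 CPM in thymus and 0, 0.332, 0.277 and 0 CPM in trachea. Tas2r125 was at 1.66, 1.87, 0.977 and 1.47 CPM in thymus and 0, 0, 0 and 0.354 CPM in trachea. These 3 did not overlap between the tissues. Tas2r129 was at 1.71, 1.24, 0.156 and 4.06 CPM in thymus and 0.112, 0.0948, 0 and 0.495 CPM in trachea, with thymus library 3 inside the trachea range.

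Further genes of this array had 0 to 2 counts in all trachea pools together. Tas2r123 was at 3.85, 2.46, 3.77 and 3.24 CPM in thymus and had 2 counts over the 4 trachea pools. Tas2r109 was at 1.85, 3.39, 2.95 and 2.48 CPM in thymus and had 1 count in trachea. Tas2r131, a receptor gene known from reporter mice that mark taste cells, was at 0.338, 1.22, 0.354 and 0.298 CPM in thymus, highest in library 2, and had 1 count in trachea. In these 3 genes all thymus libraries lay above all trachea pools. Tas2r121 was at 1.47, 1.85, 0.453 and 1.19 CPM and Tas2r124 at 0.387, 0.130, 0.184 and 1.53 CPM in thymus, both with 0 counts in trachea. Tas2r140 was at 0.0966, 0.0740, 0.156 and 0 CPM in thymus and had 10 counts (0.261 CPM) in gall bladder tuft library 4, its highest value in any library. Tas2r122 had 7 counts in thymus library 3 and none elsewhere.

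The members outside chromosome 6 were also found mainly in thymus. Tas2r119 (chromosome 15, 32177289 to 32178294, plus strand), the counterpart of human TAS2R1, was at 2.06, 2.31, 3.63 and 3.67 CPM in thymus and had 3 counts over the trachea pools. Tas2r134 (chromosome 2, 51627511 to 51628408, plus strand) was at 0.805, 1.61, 0.609 and 1.34 CPM in thymus and had 0 counts in every other library.

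Each tissue was then compared on the log scale with the other 4 tuft tissues, averaged with equal weight, in 1 edgeR fit of the 18 tuft libraries over 26028 genes with at least 10 counts. A gene was called at a Benjamini-Hochberg adjusted p under 0.05 over all genes and a log2 fold change of at least 1 in size. Of the 35 members 32 were tested, since Tas2r114, Tas2r122 and Tas2r139 had too few counts, and 10 of the 32 (Tas2r109, Tas2r119, Tas2r121, Tas2r123, Tas2r124, Tas2r130, Tas2r131, Tas2r134, Tas2r143 and Tas2r144) had under 10 counts outside thymus. Those 10 entered the test through the thymus libraries alone, so they had to be high there, and the counts of calls in thymus are a description of the family rather than support for it. In thymus tuft cells all 32 tested members were called higher and 0 lower, against 29.9% and 4.5% of all genes tested, with adjusted p from edgeR between 1.51e-06 and 0.0298. In trachea tuft cells 16 were called higher and 0 lower, against 15% and 9.39% of all genes tested. At an unadjusted p under 0.05 edgeR gave 0 lower in both tissues, as did calls by DESeq2 and limma voom. The 16 were Tas2r102, Tas2r104, Tas2r105, Tas2r107, Tas2r108, Tas2r110, Tas2r113, Tas2r116, Tas2r117, Tas2r118, Tas2r120, Tas2r129, Tas2r135, Tas2r136, Tas2r137 and Tas2r138. The thymus call of Tas2r140 was lost without thymus library 1, 2 or 3, that of Tas2r135 without thymus library 2, and Tas2r130 fell under the count minimum without thymus library 1. The trachea call of Tas2r129 was lost in 17 of 26 alternatives, and that of Tas2r120 rested on pool 3, without which its log2 fold change turned to -2.86 with an adjusted p from edgeR of 1.

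With groups of under 3 summed counts set to 3 counts, the median log2 difference over the 32 tested members was 5.58 for thymus, against 0.21 over all genes tested. For trachea it was 1.68 against -0.41. The fitted medians, which depend on the prior count where a group is at 0, were 6.96 and 3.09. The thymus value of 29 members exceeded, in each of the 4 libraries, every value of the 13 reference and digestive tract libraries, and the trachea value of 10 members did so in all 4 pools. Of all genes tested, 9.02% and 3.14% separated in the same way in thymus and trachea. The 10 members that met the count minimum through thymus alone are among the 29, except Tas2r130 and Tas2r143. Both thymus medians include those 10. The comparisons of the 5 tissues share their libraries with each other, so thymus calls and the lower calls elsewhere are not independent.

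In the digestive tract no member was called higher in any tissue. In small intestine tuft cells 0 members were called higher and 7 lower (Tas2r105, Tas2r107, Tas2r108, Tas2r113, Tas2r116, Tas2r118 and Tas2r138), against 8.04% and 5.46% of all genes tested. In colon tuft cells 0 were called higher and 6 lower (Tas2r108, Tas2r118, Tas2r135, Tas2r136, Tas2r137 and Tas2r138), against 9.16% and 4.19%. In gall bladder tuft cells 0 were called higher and 3 lower (Tas2r104, Tas2r108 and Tas2r137), against 10.4% and 6.14%. Tas2r108 alone was in all 3 lists. Members not called lower were not thereby shown to be level with the other tissues. The fit could be unstable where more than 1 tissue had 0 counts. Tas2r103 had 0 counts in small intestine and gall bladder tuft cells and 661 in thymus. Its small intestine log2 difference was -4.90 with a standard error of 7061, so it could not be called. At an unadjusted p under 0.05 edgeR gave 0 higher in small intestine and colon and 1 in gall bladder, Tas2r140 (edgeR adjusted p = 0.0652), while DESeq2 and limma voom called 0 higher in all 3. The number of lower calls depended on single libraries. In small intestine it was 2 without tuft library 4 (3.09% of all genes), 3 without tuft library 2 (3.47%) or 3 (3.2%), and 4 without gall bladder library 1. In colon it was 2 without tuft library 3, and 3 without tuft library 1, 2 or 4, small intestine library 2, gall bladder library 1 or thymus library 2. The number also grew with the tool, to 15 in small intestine, 9 in colon and 9 in gall bladder with DESeq2 and to 28, 19 and 7 with limma voom. Lower calls over all genes grew as well, in small intestine and colon with both tools and in gall bladder with DESeq2. The shares of all genes above are from edgeR, so the member counts of the other tools cannot be set against them. The growth is therefore not a result about the receptors alone.

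Between tuft cells and reporter-negative epithelium of the small intestine, no difference in bitter receptors was detectable at this depth. In the edgeR fit of these 6 libraries 5 members had 10 or more counts, and 0 were called higher and 0 lower, against 10.2% and 11.4% of all genes tested. At an unadjusted p under 0.05 edgeR gave 0 higher and 1 lower, and DESeq2 and limma voom called 0 in either direction. Tas2r108 had 15, 18 and 17 counts in the reference and 36, 31 and 0 counts in tuft libraries 2, 3 and 4. Its log2 difference was 0.89 ± 1.20 (tuft minus reference, SE; edgeR adjusted p = 0.608). Tas2r113 had 2, 3 and 6 counts in the reference and 0 in all 3 tuft libraries.

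A direct comparison asked how the receptor sets of thymus and trachea tuft cells differ. Of the 32 tested members, 8 were called higher in thymus and 1 in trachea, against 15.5% and 5.7% of all genes tested (edgeR, adjusted over all genes). With limma voom 16 members were called higher in thymus and with DESeq2 10. The shares of all genes above are from edgeR, so these 2 counts cannot be set against them. Without thymus library 3 the share of all genes called lower was 3.31%. The 8 were Tas2r109, Tas2r119, Tas2r121, Tas2r123, Tas2r124, Tas2r131, Tas2r134 and Tas2r144, and for all 8 no thymus library overlapped a trachea pool. All 8 are among the 10 members that met the count minimum through thymus alone. The member higher in trachea was Tas2r108, with a thymus minus trachea log2 difference of -2.30 ± 0.79 (SE; edgeR adjusted p = 0.0415). In all, 13 of the 32 had every thymus library above every trachea pool, 1 had the reverse, and 18 overlapped, against 15.2% and 6.23% of all genes tested with the same separation in each direction. Of the 13, 8 met the count minimum through thymus alone. The median log2 difference over the 32 was 2.70 with the 3-count floor, against 0.15 over all genes tested. It includes the 10 members that met the count minimum through thymus alone.

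Folds for the 8 genes higher in thymus are bounds or wide intervals, because trachea gave almost no counts. Against a floor of 3 counts over the 4 pools, Tas2r144 was at least 81.1-fold, Tas2r121 at least 63.6-fold, Tas2r134 at least 55.9-fold and Tas2r124 at least 27.9-fold higher. For genes with 1 to 3 trachea counts, the ratio of pooled CPM was 156 for Tas2r119 (95% exact counting interval 53.3 to 760.5) and 269.9 for Tas2r123 (74.5 to 2233). These intervals cover counting error only, since amplified reads carry no molecular identifiers. Tas2r123 shares a stretch with Tas2r110, shown above, which was present in trachea. The calls of Tas2r109, Tas2r119, Tas2r121, Tas2r123, Tas2r134 and Tas2r144 were kept in all 26 alternatives run, while Tas2r124 was lost in 7 and Tas2r131 in 5. The call of Tas2r108 was lost in 9 of 26, among them RLE scaling and the fits without any 1 thymus library or without trachea pool 2, 3 or 4. Its adjusted p over the alternatives ran from 0.00351 to 0.107.

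**Figure D2:**
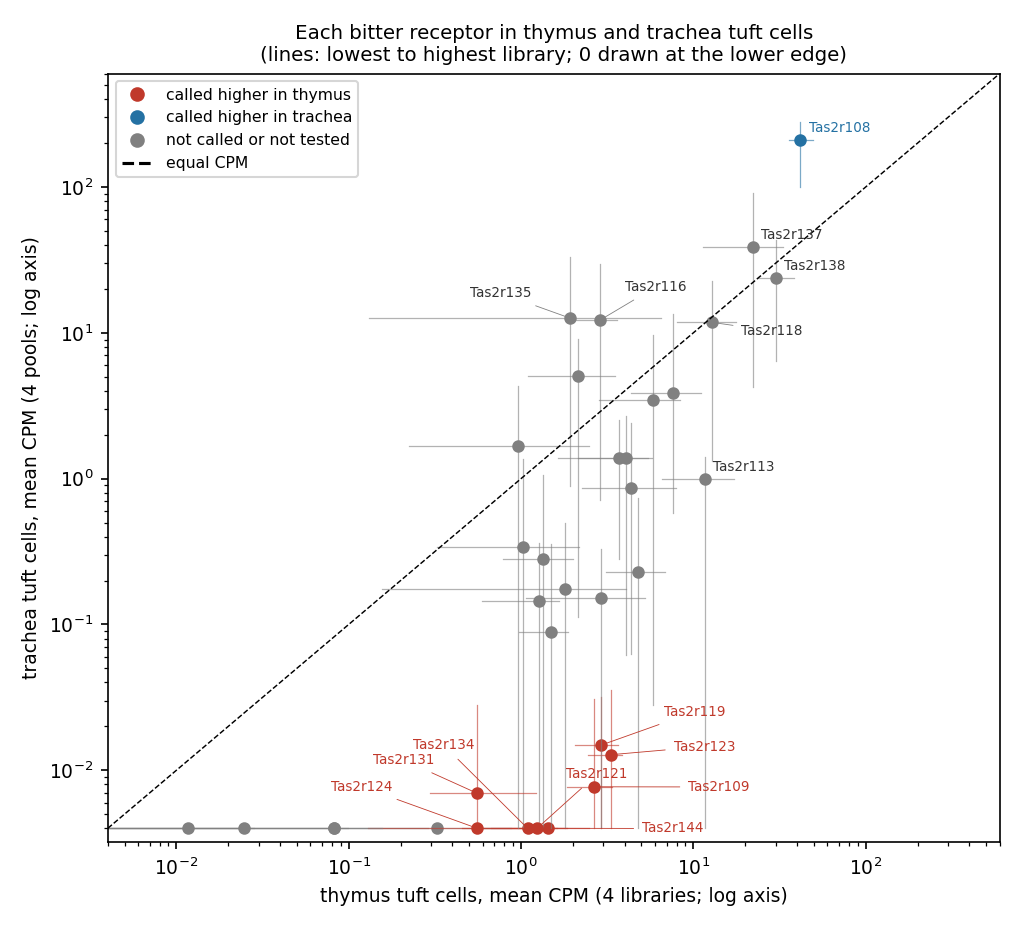
Mean CPM of each member in thymus tuft cells (x, 4 libraries) and trachea tuft cells (y, 4 pools), both on log axes, with lines from the lowest to the highest library and values of 0 drawn at the lower edge. The 8 genes called higher in thymus lie at or near 0 in trachea, and Tas2r108, at 41.8 and 211 CPM, is the member called higher in trachea.

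Tas2r108 had a larger share of the family total in every trachea pool than in any thymus library. It took 22.2, 22.2, 29.4 and 20.2% of the family's counts in thymus libraries 1 to 4 and 75.9, 65.9, 61.6 and 61.1% in trachea pools 1 to 4. Other shares overlapped, with Tas2r118 at 5.92% to 8.10% in thymus and 0.292% to 6.25% in trachea and the array of 5 genes at 2.71% ± 1.40 and 3.22% ± 2.87 (SD, n = 4 each). The 5 leading members together took 65.7% ± 2.82 in thymus and 93.8% ± 2.73 in trachea (SD, n = 4 each). These shares do not depend on scaling between libraries, and no test was made on them.

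**Figure D3:**
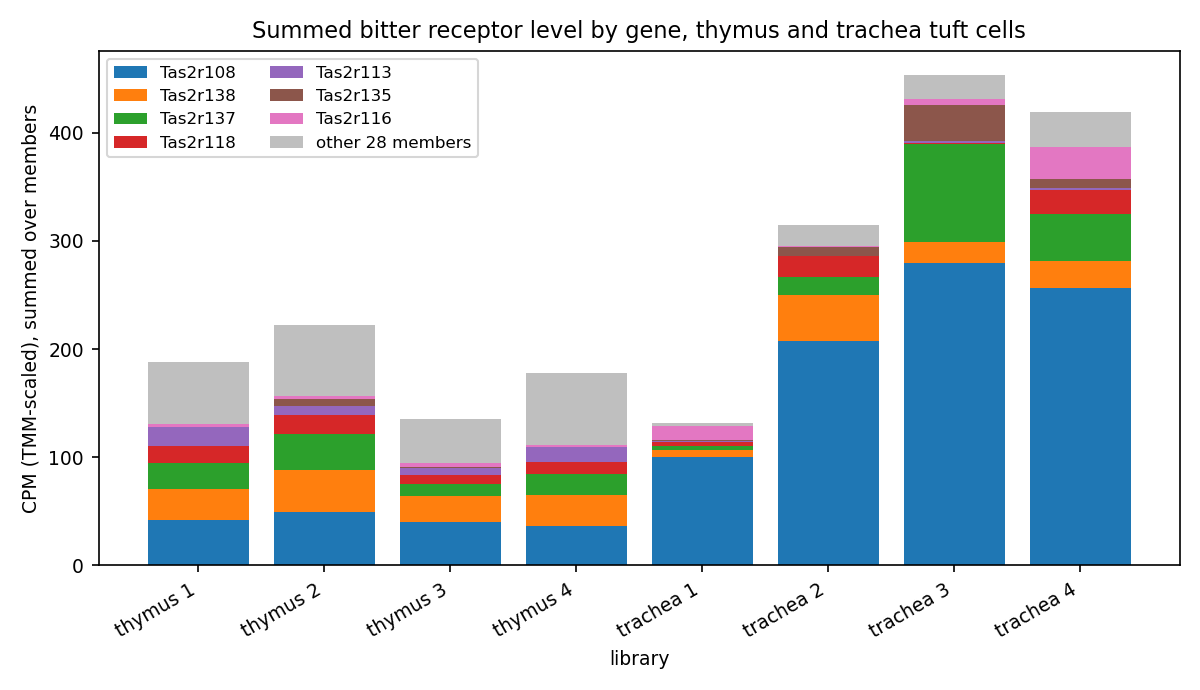
Summed CPM of the family in each thymus library and trachea pool (stacked bars, 0 at the base), with 7 members in colour and the other 28 in grey. Tas2r108 fills 61.1% to 75.9% of the trachea bars and 20.2% to 29.4% of the thymus bars.

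Trachea pools differed from each other more than thymus libraries did, for bitter receptors as for most genes. Of the 14 members with at least 100 counts in each of the 2 tissues, 13 had a higher coefficient of variation (SD over mean) in trachea, and the exception was Tas2r135. The same held for 86.5% of the 13038 genes with that many counts, so the members' share was near that of all genes. The coefficient was 0.134 in thymus and 0.378 in trachea for Tas2r108, and 0.378 and 1.66 for Tas2r105. No pool was high for all members. Pool 3 was highest for Tas2r137, Tas2r135 and Tas2r102, pool 4 for Tas2r116 and Tas2r105, and pool 2 for Tas2r138 and Tas2r136. The pools held 210, 453, 130 and 230 cells, against 1350 to 1900 cells in thymus, and differed in age and sex, and the part of these in the spread was not tested. Medullary genes stood beside the breadth of the thymus set, with Aire at 155 to 253 CPM and Fezf2 at 234 to 298 CPM in thymus and 0 to 5.58 and 0 to 0.185 CPM in trachea. Secretory cell genes stood beside the trachea values, with Scgb1a1 at 8244 to 54610 CPM there and 52.5 to 149 CPM in thymus. The part of either list in the receptor levels was not tested.

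The few counts of the digestive tract libraries are given beside genes of thymus and airway epithelium. Small intestine tuft library 4 and gall bladder tuft library 3 had 0 counts over all 35 members. They also had 0 to 0.0244 CPM of Fezf2 and 0.244 and 0.322 CPM of Scgb1a1, the lowest 2 values of Scgb1a1 among the 13 libraries. Foxn1 was at 0 CPM in both, Krt5 at 0.0244 and 0 CPM, and Aire at 0.195 and 0 CPM. In small intestine tuft libraries 2 and 3 Aire was at 0.180 and 0.0499 CPM. Aire had at most 8 counts in any small intestine tuft library, so these values do not rank the libraries. In the reference and colon tuft libraries the family summed to 0.422% to 1.02% of its thymus mean, and Fezf2, a regulator in medullary thymic epithelium, stood at 0.386% to 0.898% of its own thymus mean. The 2 did not keep a fixed ratio, since colon tuft library 2 had the family at 0.983% and Fezf2 at 0.386%. Foxn1, listed for cortical thymic epithelium, was at 2.21% of its thymus mean in that library. In gall bladder tuft libraries 1 and 4 the family was at 0.944% and 1.24% of its thymus mean and Fezf2 at 0.283% and 0.252%, while Scgb1a1 was at 1.03% and 0.00309% of its trachea mean. In small intestine tuft libraries 2 and 3 the family was at 0.747% and 0.787% of its thymus mean and 0.410% and 0.432% of its trachea mean. Scgb1a1, the club cell secretoglobin, was there at 0.286% and 0.144% of its own trachea mean, and Fezf2 at 0% and 0.0357% of its thymus mean. In the reference and colon tuft libraries the family was at 0.232% to 0.559% of its trachea mean. Scgb1a1 was at 0.00219% to 0.00478% of its own in those libraries.

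The make-up of these few counts was not uniform either. Tas2r108 made up 36 of 60 and 31 of 57 of the family's counts in small intestine tuft libraries 2 and 3, shares just below the trachea range, and 25.7% to 32.6% in the reference, within or just above the thymus range. In gall bladder tuft library 4, by contrast, 64 of 86 counts fell on Tas2r138 and 3 on Tas2r108, and in colon tuft library 2, 36 of 79 counts fell on Tas2r138. Neither thymus nor trachea had Tas2r138 as its leading member. The source of the counts in these 11 libraries was not tested.

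**Figure D4:**
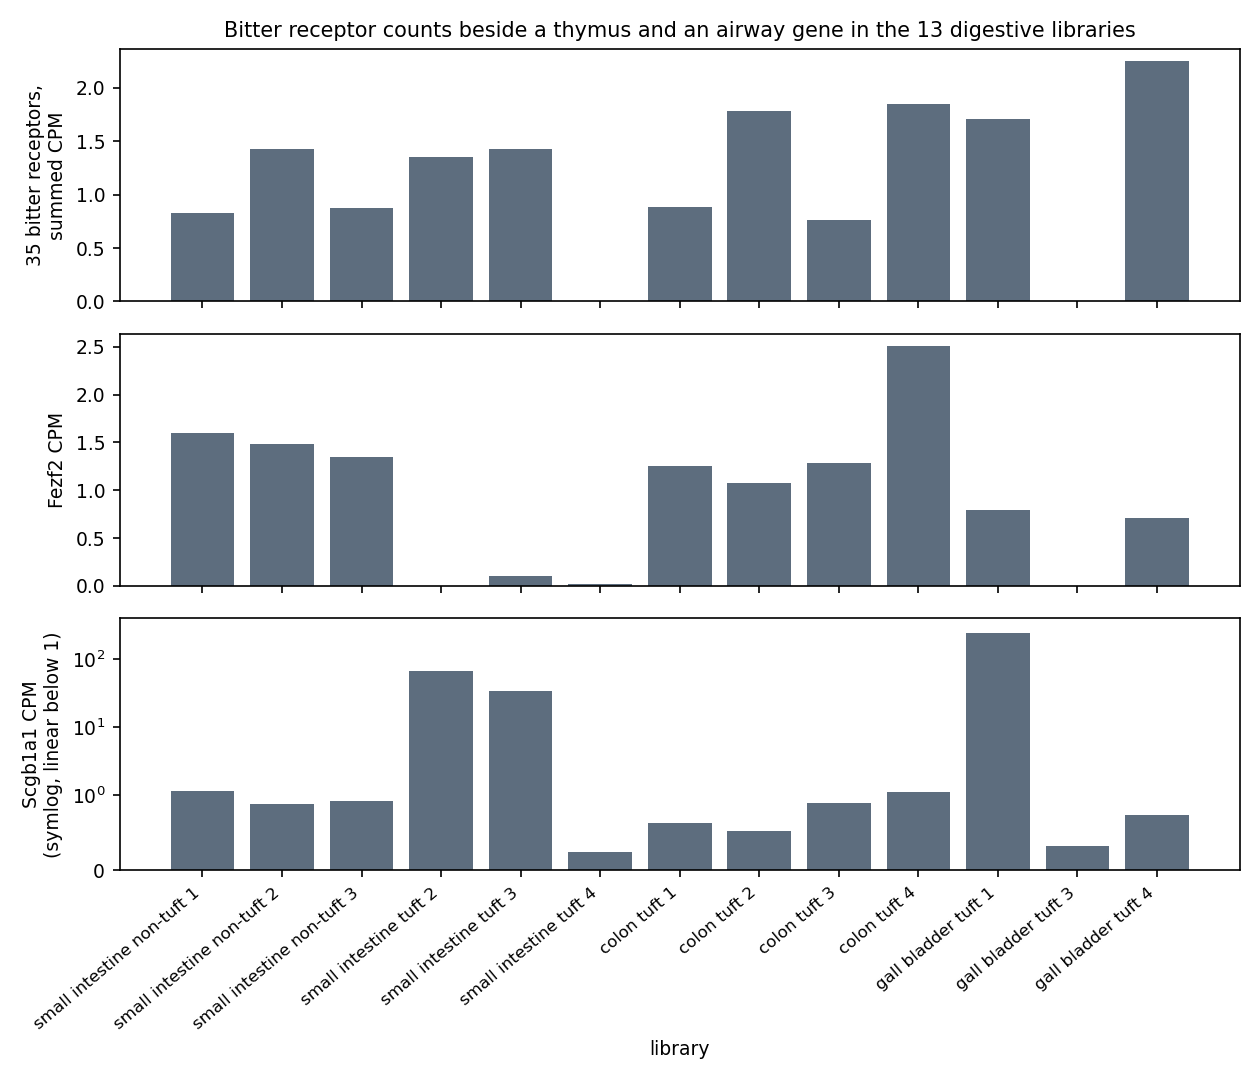
Summed CPM of the 35 members (top), CPM of Fezf2 (middle) and CPM of Scgb1a1 (bottom, axis linear below 1 and logarithmic above) in the 13 reference, small intestine, colon and gall bladder libraries. Both libraries without bitter receptor counts, small intestine tuft 4 and gall bladder tuft 3, have at most 0.0244 CPM of Fezf2 and at most 0.322 CPM of Scgb1a1.

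The signalling chain behind the receptors was detected in all tuft groups and, by number of genes, in the reference as well. Of 22 genes listed for taste signalling, 21 had at least 3 counts in every thymus library and 16 in every trachea pool. The number was 14 in small intestine, 15 in colon and 14 in gall bladder tuft cells, and 20 in the reference. Detection at this minimum was thus not particular to tuft cells. Of the 22, 14 were called higher and 2 lower in thymus, 9 and 3 in trachea, 2 and 5 in small intestine, 2 and 9 in colon and 5 and 4 in gall bladder tuft cells, each against the mean of the other 4 (edgeR, same call rule and same shares over all genes as above). The summed level of the list was 3980 to 4841 CPM in thymus, 7755 to 14700 in trachea, 6612 to 7745 in small intestine, 2482 to 3264 in colon and 7339 to 8347 in gall bladder tuft cells, against 800.1 to 1020 CPM in the reference. Between small intestine tuft and reference cells 6 of 20 tested genes were called higher, Gnat3, Gng13, Plcb2, Trpm5, Calhm3 and Gnai2, and 1 lower, Gnat2, whose call was lost without reference library 3. The count called lower in colon was 5 without colon library 3, and the count called higher in gall bladder was 3 without gall bladder library 1.

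The channel Trpm5, which carries the final current, was at 4860 ± 668 CPM in small intestine, 5611 ± 149 in gall bladder, 3042 ± 972 in trachea, 1200 ± 195 in colon and 1126 ± 106 in thymus tuft cells. It was called lower in thymus than in the mean of the other tissues (log2 difference -1.39 ± 0.16, edgeR adjusted p = 8.16e-07), the opposite of all tested receptors. The phospholipase Plcb2 was at 1123 ± 172 CPM in thymus, 899.5 ± 79.3 in small intestine, 613 ± 351 in trachea, 459.9 ± 78.1 in colon and 385 ± 136 in gall bladder. The spread of the trachea pools covered most of this range.

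The subunits of gustducin also differed between tissues. Gnat3 was at 5432 ± 1939 CPM in trachea, 574 ± 149 in thymus, 95.6 ± 20.7 in colon, 35.9 ± 18.8 in small intestine and 16.6 ± 11.6 in gall bladder tuft cells, and was called lower in thymus than in trachea (log2 difference -3.19 ± 0.42, edgeR adjusted p = 1.89e-05). Gng13 was at 121 ± 38.4 CPM in gall bladder, 62.2 ± 10.7 in trachea, 41.2 ± 23.1 in thymus, 2.75 ± 0.261 in small intestine and 1.12 ± 0.865 in colon. The 2 tissues with bitter receptors thus also had the highest Gnat3, but Gng13 was highest in gall bladder, where the receptors were near the floor.

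The sweet and umami receptor genes, which use the same chain, matched the bitter receptors only in part. Against the mean of the other tissues, edgeR called Tas1r1, Tas1r2 and Tas1r3 higher in thymus, and Tas1r3 higher in trachea. It also called Tas1r1 lower in trachea and higher in gall bladder, and Tas1r2 higher in small intestine. No bitter receptor had calls of those kinds. The small intestine call of Tas1r2 rested on tuft library 3 (1.80 CPM, with 0 in libraries 2 and 4). Tas1r3, the shared subunit, was at 439 ± 194 CPM in trachea, 119.8 ± 32.2 in thymus and 31.8 ± 21.5 in gall bladder. Tas1r1, the umami partner, was at 11.7 ± 3.84 CPM in thymus, 4.26 ± 3.76 in gall bladder and 0 to 0.0279 in trachea, where at most 1 count was found per pool. Tas1r1 and Tas1r2 were among the 5 genes of the list called higher in thymus than in trachea, with Calhm3, Gnat1 and Gnat2, and the 5 called lower were Gnat3, Gnb3, Itpr3, Tas1r3 and Trpm5. The first count was 3 without thymus library 1 or trachea pool 1, 2 or 4, and the second was 3 without thymus library 3.

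**Figure D5:**
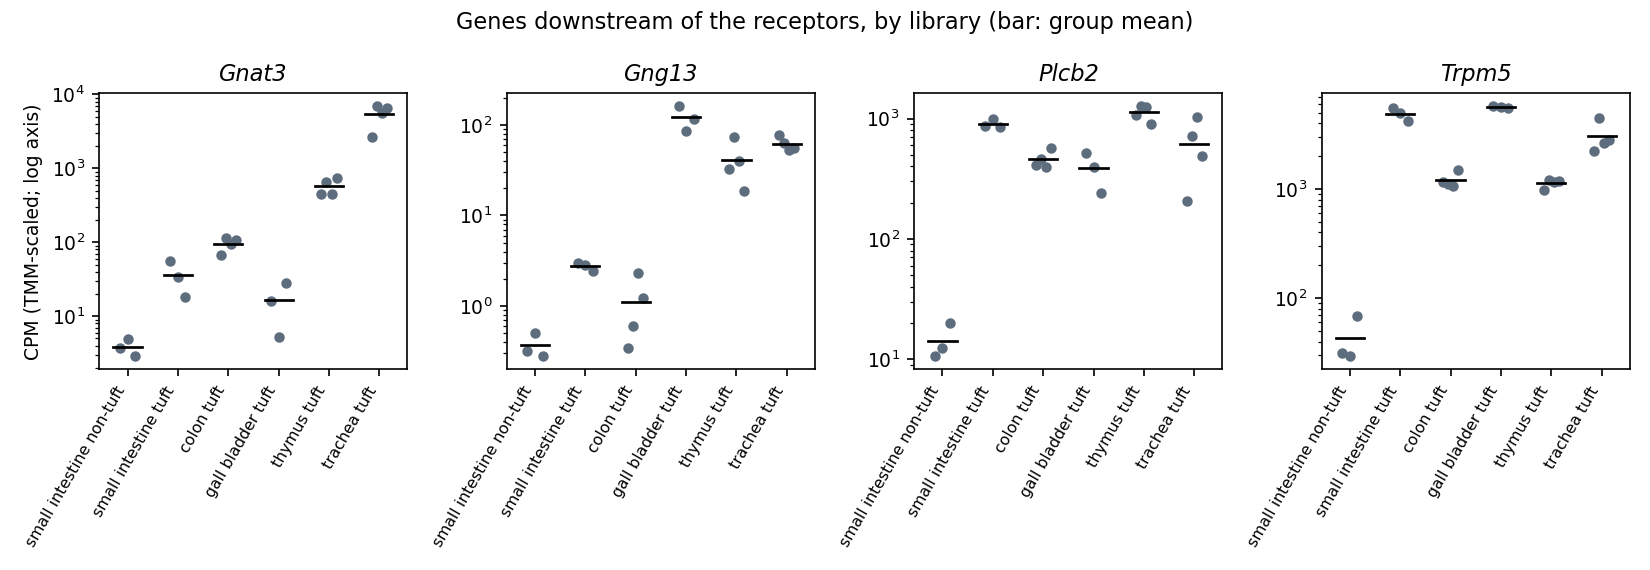
CPM of Gnat3, Gng13, Plcb2 and Trpm5 in every library (points) by group, on log axes that differ between panels, with group means as bars. Gnat3 is highest in trachea (2657 to 6972 CPM) and thymus (446 to 741 CPM), while Trpm5 is at least 971 CPM in every tuft library.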

How the data were processed

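Messenger RNA of 21 sorted cell samples was amplified from total RNA with NuGEN Ovation V2 and made into Nextera XT libraries, without molecular identifiers, per the labels' protocols. The deposited values are raw counts per Ensembl gene and library, with 43432 gene rows each. STAR, DESeq2 and GRCm38 are listed, per the submitters' processing notes, as tools and genome build. How reads were assigned to genes, with or without strand, and by which annotation, was not given in the sources used here. Symbols, exon lengths and coordinates came from GENCODE M21, which may differ from the submitters' annotation, and promoters from RefSeq.

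Library totals were 25739248 to 73574745 counts, so 3 counts correspond to at most 0.117 CPM. Groups followed the labels, which name the replicates, and p-values measure the spread between these samples. No 2 libraries agreed within sampling noise. Genes with at least 10 counts over the libraries of a fit were kept, without regard to group, and scaled by TMM. Tests were edgeR quasi-likelihood tests with Benjamini-Hochberg adjustment over all genes of the fit, 1 fit for the 18 tuft libraries and 1 for the 6 libraries of the small intestine. Tissue contrasts compared a tissue with the unweighted mean of the other 4. A call required adjusted p below 0.05 with a log2 fold change of 1 or more in either direction. Tests were checked on simulated data.

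Members were given library by library if they had 3 or more counts in every library of a group with a mean of at least 1 CPM, or were called in a comparison. The members, the gene lists and this rule were chosen with earlier results of these data known. Tas1r1, Tas1r3 and the 13-library counts were described, and the minimum of 100 counts for comparing spread was set, after the values were seen. Alternatives were RLE scaling, library totals alone, no mitochondrial genes, no count minimum, edgeR's filterByExpr, all 21 libraries in 1 fit, DESeq2, limma voom with sample weights, the replicate number as a block, leaving out each library, other detection minimums and thinning to the smallest total. Versions were R 4.3.3, edgeR 4.0.16, limma 3.58.1, DESeq2 1.42.0, Python 3.11.15, pandas 2.3.3, SciPy 1.17.1 and matplotlib 3.10.9.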

Additional observations from a re-analysis of the deposited data

Results flagged for a closer look

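For each member with unequal values over the 4 libraries of thymus, trachea or colon (86 groups of 4), and for the summed level and the number of members detected (6 more), the highest or lowest library was compared with the other 3 by Dixon's criterion. Of the 92 groups 24 had such a library, 7 in trachea, 4 in thymus and 13 in colon. The criterion marks about 1 in 20 groups by chance when values are normally distributed, a rate that does not apply to genes with few counts. A gene with counts in 1 library only meets it by construction, which was the case in 15 of the 24.

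The other 9 had counts in more than 1 library. In thymus, Tas2r135 was at 6.48 CPM in library 2, against 0.130 to 0.864 CPM in the others. Tas2r131 was at 1.22 CPM in the same library, against 0.298 to 0.354 CPM. Tas2r130 was at 0.290 CPM in library 1, against 0 to 0.0370 CPM. In trachea, Tas2r105 was at 13.5 CPM in pool 4, against 0.584 to 0.698 CPM in the other pools, and Tas2r126 was at 1.06 CPM in the same pool, against 0 to 0.0558 CPM. Tas2r113 had 0 counts in pool 2, against 1.23 to 1.41 CPM. In colon, Tas2r138 was at 0.810 CPM in library 2, against 0.0696 to 0.162 CPM, and Tas2r118 was at 0.101 CPM in library 4, against 0.0373 to 0.0464 CPM. Tas2r116 had 0 counts in colon library 3, against 0.0203 to 0.0232 CPM, which are single counts.

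Counts in 1 library only were found for Tas2r122 in thymus library 3 (0.0991 CPM), and in trachea for Tas2r120 in pool 3 (1.36 CPM), Tas2r125 in pool 4 (0.354 CPM), Tas2r131 in pool 1 (0.0279 CPM) and Tas2r109 in pool 3 (0.0308 CPM). In colon library 2 these were Tas2r120 (0.0675 CPM), Tas2r121 (0.0450 CPM), Tas2r135 and Tas2r110 (0.0225 CPM each). In colon library 4 they were Tas2r117 (0.0810 CPM), Tas2r129 (0.0405 CPM), Tas2r125 and Tas2r131 (0.0203 CPM each). Tas2r106 was found in colon library 3 alone (0.0373 CPM) and Tas2r136 in colon library 1 alone (0.0232 CPM).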

How the results depend on the processing

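The 32 thymus and 16 trachea calls were within 1.5 times under all alternatives run, with 28 and 14 by DESeq2, 31 and 11 by limma voom. Lower calls were 15 (small intestine) and 9 (gall bladder) by DESeq2, and 28, 19 (colon) and 7 by voom. Lower calls over all genes also moved with the tool, as given in the next paragraph. Voom called 16 members higher in thymus than in trachea, and the lower call of Tas2r108 was lost under RLE scaling (0). The trachea log2 fold change of Tas2r120 ran from -2.86, without trachea pool 3, to 4.84. Leaving out each library gave 30 to 32 thymus, 14 to 16 trachea, 2 to 8 small intestine, 2 to 6 colon and 3 to 4 gall bladder calls, and 7 to 8 higher and 0 to 1 lower between thymus and trachea. It gave 0 calls throughout, as did the full data, for higher calls in small intestine, colon and gall bladder, lower calls in thymus and trachea, and tuft against reference cells. Members detected in every library then numbered 4 to 5 in the reference, 0 to 3 in small intestine, 3 to 4 in colon, 0 to 2 in gall bladder, 29 to 30 in thymus and 10 to 12 in trachea. Summed CPM ran from 0.851 to 1.15, 0.676 to 1.39, 1.14 to 1.501, 0.854 to 1.98, 167 to 196 and 288 to 396 in that order. With a minimum of 1 count, 10 counts or thinned libraries, detection was 8, 1 and 1 in the reference and 7, 0 and 1 in colon. These counts thus depended on the minimum and on thinning. Thymus summed CPM was 253.3 with library totals alone and 221.7 without mitochondrial genes.

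Replicate numbers were not used to pair libraries in the main fits. In deviations from group means, 1 of 45 same-numbered pairs correlated over 0.1 (small intestine and trachea tuft 2, r = 0.163). Of 138 pairs with different numbers 0 did. Low correlations cannot show that same-numbered libraries shared no mouse or day of preparation. With the number as a block, 6, 4 and 3 members were lower in small intestine, colon and gall bladder, 30 and 14 higher in thymus and trachea, and 9 higher and 0 lower between thymus and trachea. Over all genes, a fit of 21 libraries called 724 higher and 471 lower in small intestine tuft than reference cells, against 2159 and 2398. Tool or block moved these counts over 1.5 times: small intestine higher 3984 by voom (2092) and lower 2515 by DESeq2 and 3440 by voom (1421), colon lower 1920 and 2141 (1090), gall bladder higher 1723 by voom and 1543 with the block (2702) and lower 3431 by DESeq2 (1597), trachea higher 2035 by voom and 2456 with the block (3908) and lower 3879 by DESeq2 (2444). So did single libraries: the small intestine lower count was 899, 828 and 800 without its tuft library 2, 3 or 4, and the count lower in thymus than in trachea was 844 without thymus library 3 (1483).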
